A study of Mus musculus with 9 samples.

Results

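The comparison concerned 2 libraries labelled CEBPaCre, from mice with a floxed Fcgr2 and a Cre, set against 3 libraries labelled null (Fcgr2-/-). By these labels both genotypes should lack the receptor in myeloid cells, and only the null mice in B cells. The deposited values do not show that loss, since Fcgr2b was not low in the null libraries (106 to 201 FPKM). A single value per gene cannot show loss of part of a transcript, so the label is neither borne out nor contradicted. Every direction below is therefore between libraries as labelled. Of 23234 gene symbols in the files, 10488 had a mean of at least 1 FPKM (fragments scaled to transcript length and to the mapped total) over the 5 libraries. A gene was kept when its difference on log2(FPKM + 1) had 1 sign in both subsets and was larger in each than the difference between the 2 null Gr-1+ libraries, which held for 3793 genes.

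Blood monocytes positive for CD11b were sorted into Gr-1+ and Gr-1- subsets, and RNA was sequenced from 9 libraries in all. The groups were CEBPaCre Gr-1+ (CEBPaCre;Fcgr2 fl/fl.Yaa, 1 library), CEBPaCre Gr-1- (1 library), null Gr-1+ (Fcgr2-/-.Yaa, 2 libraries) and null Gr-1- (1 library). The other 4 libraries, 1 each, are cited beside them: CD19Cre Gr-1+ and CD19Cre Gr-1- (CD19Cre;Fcgr2 fl/fl.Yaa), CD11cCre Gr-1- (CD11cCre;Fcgr2 fl/fl.Yaa) and floxed Gr-1- (Fcgr2 fl/fl.Yaa, with no Cre). All mice were C57BL/6, 8 months old, and carried Yaa, a Y chromosome with a translocated copy of an X segment that includes Tlr7. Only the null Gr-1+ group had more than 1 library, and no label ties a library to an animal. A p from a fit over both subsets therefore reflects 2 kinds of spread. One is between the null Gr-1+ libraries, which may be technical, and the other is how far the difference disagrees between subsets. Neither is known to measure spread between animals. A Cre deletes a floxed gene only in cells that express it or descend from such cells, and the files do not show which cells those were.

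Fcgr2b encodes CD32, the receptor for IgG that carries an inhibitory motif and restrains activating Fc receptors, Toll-like receptors and the B cell receptor. Its loss together with Yaa is known to produce a lupus-like disease in mice, in which Tlr7 senses RNA carried by immune complexes. Type I interferon acts through its receptor on transcription factors that include Stat2 and Irf9, which bind the interferon-stimulated response element in the promoters of antiviral genes. Heat shock factor binds a different element, built from inverted GAA units, in the promoters of chaperone genes. Gr-1+ monocytes are the classical subset recruited to inflamed tissue, and Gr-1- monocytes are the patrolling subset derived from them.

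Promoters that hold the 1 or the other element are given because interferon response genes and chaperone genes were among the groups most often kept on the deposited scale. Each runs 5′ to 3′ on the gene's own strand from 250 bases before to 50 bases after the start site in RefSeq (GRCm38.p6, a build other than that of the deposited files). Capitals mark the letters GAAANNGAAA in Ifit3 and Oas1a, and GAANNTTC in Hspa1a, found on either strand. Ifit3 lies at chr19:34583279-34583578 (+ strand), Oas1a at chr5:120907476-120907775 (- strand) and Hspa1a at chr17:34972107-34972406 (- strand).
Ifit3: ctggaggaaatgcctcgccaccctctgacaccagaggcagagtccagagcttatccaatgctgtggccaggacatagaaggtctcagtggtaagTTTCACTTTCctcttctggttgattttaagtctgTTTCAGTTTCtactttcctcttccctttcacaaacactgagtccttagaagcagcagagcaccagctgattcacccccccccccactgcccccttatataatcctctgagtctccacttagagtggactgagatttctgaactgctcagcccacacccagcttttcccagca
Oas1a: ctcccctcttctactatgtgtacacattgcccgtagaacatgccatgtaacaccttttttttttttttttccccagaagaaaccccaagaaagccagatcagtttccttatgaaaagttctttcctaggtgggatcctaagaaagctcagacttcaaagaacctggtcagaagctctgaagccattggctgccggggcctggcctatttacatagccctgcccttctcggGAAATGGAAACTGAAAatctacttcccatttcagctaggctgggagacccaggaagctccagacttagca
Hspa1a: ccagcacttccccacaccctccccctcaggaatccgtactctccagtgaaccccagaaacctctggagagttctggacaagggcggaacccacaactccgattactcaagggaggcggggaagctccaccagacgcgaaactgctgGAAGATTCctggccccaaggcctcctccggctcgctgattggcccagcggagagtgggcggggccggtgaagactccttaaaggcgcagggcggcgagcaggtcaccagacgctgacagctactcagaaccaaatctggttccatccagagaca

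The letters GAAANNGAAA occurred 2 times in Ifit3 and 2 times in Oas1a, where both matches overlap each other, and neither promoter held GAANNTTC. Of the 38 type I interferon response genes tested, 27 had a promoter in the table, and 15 of those (55.6%) held GAAANNGAAA, against 3.99% of all 27025 genes with a promoter. Of 17 chaperone genes with a promoter, 9 (52.9%) held GAANNTTC, against 9.04% of all genes, and 0 of the 17 held GAAANNGAAA. Hspa1b, whose promoter differs from that of Hspa1a at 4 of 300 positions, held the same match. Among members kept as higher the shares were similar, at 11 of 20 (55%) for the interferon genes and 8 of 13 (61.5%) for the chaperones. The lists name known response genes, so the shares above those of all genes are no result of this comparison. A match of letters is a description of these windows and says nothing about binding.

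The deposited values gave between 10134 and 10258 genes at 1 FPKM or more in each of the 5 libraries, while the depth in reads is unknown. Genes for ribosomal proteins held 4.81% to 7.87% of the summed FPKM. Haemoglobin genes held 0.165% and 0.159% in the CEBPaCre Gr-1+ and Gr-1- libraries, against 0.698%, 0.874% and 1.33% in the null ones. The sorted subsets matched their labels: 21 classical monocyte genes averaged 7.63 on log2(FPKM + 1) in the CEBPaCre and 7.93 and 7.69 in the null Gr-1+ libraries, and 4.44 in the CEBPaCre and 4.48 in the null Gr-1- library. The mean of 24 nonclassical genes was 7.73 in the CEBPaCre and 7.43 in the null Gr-1- library, and 4.74 in the CEBPaCre and 5.30 and 4.73 in the null Gr-1+ libraries.

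The targeted gene was read in every library first. Fcgr2b held 148 FPKM in the CEBPaCre Gr-1+ library, against 201 and 106 FPKM in the null Gr-1+ libraries, and 83.0 FPKM in the CEBPaCre Gr-1- library, against 145 FPKM in the null one. The null libraries were thus not low: in Gr-1+ the CEBPaCre library lay between them, and in Gr-1- the null library held more than the CEBPaCre one. Averaged within subset, the log2 difference was -0.38 (exact permutation test, two-sided, p = 0.667 over 6 assignments within subset), where the smallest p possible is 0.167. In the libraries outside this comparison Fcgr2b held 195 FPKM (CD19Cre Gr-1+), 92.9 FPKM (CD11cCre Gr-1-), 105.4 FPKM (CD19Cre Gr-1-) and 74.95 FPKM (floxed Gr-1-, with no Cre). A single value per gene cannot show loss of part of a transcript, and reads shared with Fcgr3 cannot be assigned with certainty. The genotypes are therefore named as the libraries are labelled.

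On the deposited scale more genes were higher than lower in the libraries labelled CEBPaCre. Of the 10488 genes, 3268 (31.2%) were kept as higher and 525 (5.01%) as lower, so that 86.2% of the kept genes were higher. That split depended on the scaling: the median log2 difference of all genes was 0.18 in Gr-1+ and 0.23 in Gr-1-, and under upper-quartile scaling 1187 genes were kept as higher (11.3% of those tested) and 1585 as lower (15.1%), so that 42.8% were higher, while quantile normalization gave 1446 (13.8%) and 1344 (12.8%), or 51.8% higher. Values below are as deposited and are to be read against these all-gene medians, and for each gene list the counts kept as higher and lower under upper-quartile scaling are given beside the main ones. Kept genes with at least a 2-fold difference on FPKM + 1 in both subsets numbered 80 higher (0.763% of genes tested) and 32 lower (0.305%). The CEBPaCre library lay above every null library of its own subset, in both subsets, for 5180 genes (49.4%) and below for 1110 (10.6%). The same rule applied to CD19Cre minus null, which shares the null libraries, kept 5287 of 10390 genes. Of those tested, 3882 (37.4%) were kept as higher and 1405 (13.5%) as lower, so more genes were higher than lower there too.

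**Figure D1:**
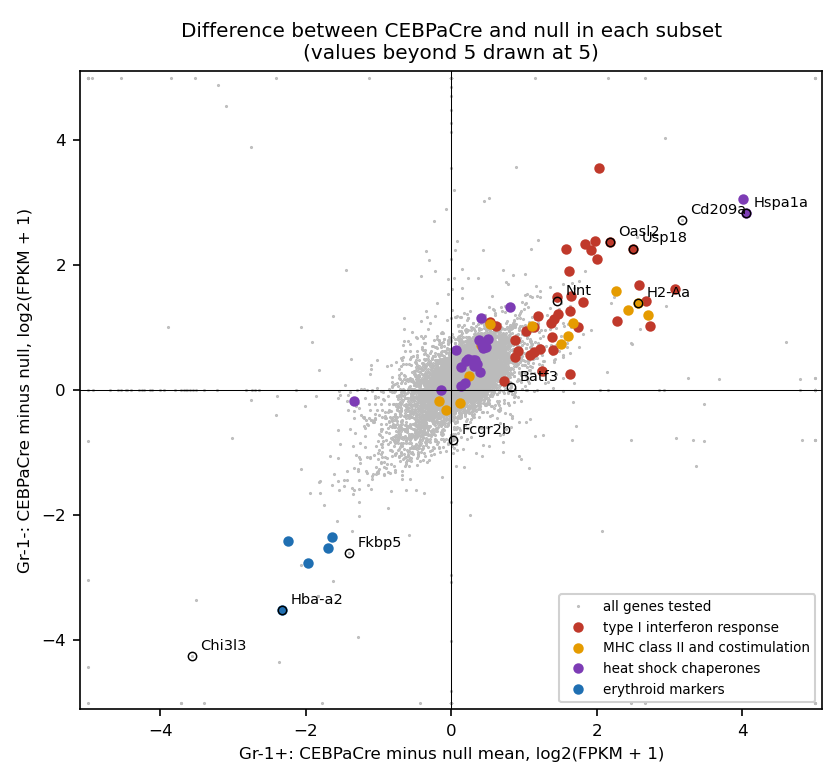
Each point is 1 gene, with the difference between the CEBPaCre and null libraries on log2(FPKM + 1) in Gr-1+ (horizontal, against the mean of 2 null libraries) and in Gr-1- (vertical, against 1 null library), and values beyond 5 are drawn at 5. The 38 type I interferon genes lie up and right of the origin, the 5 erythroid markers lie down and left with Chi3l3 beyond them, and most of the 22 chaperones lie near the bulk of genes, apart from Hspa1a and Hspa1b.

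Across all genes, limma with subset as a covariate (2 residual degrees of freedom) called 3 genes higher (0.0286%) and 2 lower (0.0191%) at a Benjamini-Hochberg adjusted p of 0.05, while 2384 genes had an unadjusted p below 0.05. All 5 were loci of small RNAs. Mir1898 held 132 FPKM in the CEBPaCre Gr-1+ and 150.4 FPKM in the CEBPaCre Gr-1- library and was listed at 0 in the 3 null libraries (limma adjusted p = 4.7e-04). Mir3473c held 149 and 85.2 FPKM and Mir707 held 265 and 151 FPKM in the CEBPaCre Gr-1+ and Gr-1- libraries, and both were listed at 0 in the 3 null libraries (limma adjusted p = 0.00206 and 0.00168). The 3 loci were also listed at 0 in the CD11cCre and both CD19Cre libraries, and Mir1898 held 171 FPKM in the floxed library.

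Their mature sequences in RefSeq (GRCm38.p6) are given because these loci passed the test, with the seed, bases 2 to 8, in capitals. They lie on chromosomes 15, 1 and 7 and share no seed.
mmu-miR-1898: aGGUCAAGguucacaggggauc
mmu-miR-3473c: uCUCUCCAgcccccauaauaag
mmu-miR-707: cAGUCAUGccgcuugccuacg

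In the other direction, Snora3 was listed at 0 in both CEBPaCre libraries and held 46.3 and 33.1 FPKM in the null Gr-1+ and 50.3 FPKM in the null Gr-1- library (limma adjusted p = 0.00319). Snord22 was likewise listed at 0 in both CEBPaCre libraries and held 38.0, 27.1 and 20.6 FPKM in the null libraries (limma adjusted p = 0.00998). Both are small nucleolar RNAs, which guide the modification of other RNAs. Without CEBPaCre Gr-1+, CEBPaCre Gr-1- or null Gr-1-, Snora3 and Snord22 were not called. In those fits the null Gr-1+ pair alone sets the spread, and it is 0 for the 3 Mir loci, so their calls there carry no information. The 5 loci were chosen after their values were seen, because they passed the test. Each passed the filter on the mean only through the genotype in which it is high, so a difference was built into its inclusion. FPKM divides by length, so a locus this short reaches a high value from few fragments, and genes tested were listed at 0 in both CEBPaCre libraries in 60 cases and in all 3 null libraries in 46. Of genes that are not small RNAs or predicted genes, the smallest limma adjusted p was 0.0746, for Hspa1l. The groups below are therefore described by their values, and no difference in them passed the test at 0.05.

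Genes of the type I interferon response were higher in the libraries labelled CEBPaCre than in the null libraries of both subsets. Of 38 members tested, 30 were kept as higher and 0 as lower, against 31.2% and 5.01% of all genes. The CEBPaCre library lay above every null library of its subset in both subsets for all 38, against 49.4% of all genes. The median log2 difference was 1.52 in Gr-1+ and 1.13 in Gr-1-, against 0.18 and 0.23 for all genes. With either upper-quartile scaling or quantile normalization 17 of the 38 were kept as higher and 0 as lower, against 11.3% and 13.8% of all genes kept as higher under these settings. None passed limma over all genes (smallest adjusted p = 0.161), and 35 had an unadjusted p below 0.05.

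Oasl2, an oligoadenylate synthetase-like protein, held 110.4 FPKM in the CEBPaCre Gr-1+ library, against 14.7 and 37.7 FPKM in the null Gr-1+ libraries. In Gr-1- it held 17.5 FPKM in the CEBPaCre Gr-1- library, against 2.57 FPKM in the null one. The groups did not overlap in either subset, as holds for every kept gene, and the folds on FPKM + 1 were 4.52 in Gr-1+ and 5.18 in Gr-1-. Usp18, a protease that removes Isg15 and dampens the interferon receptor, held 61.3 FPKM in the CEBPaCre Gr-1+ library, against 6.35 and 15.4 FPKM in the null Gr-1+ libraries, and 12.5 FPKM in the CEBPaCre Gr-1- library, against 1.82 FPKM in the null one. Its folds were 5.68 and 4.804, close to those of Oasl2. Without null Gr-1+ replicate 1 the fitted log2 difference of Usp18 was 2.095, against 2.402 with no library left out. Without replicate 2 it was 2.602 for Oasl2, 1.984 for Oas1a and 2.119 for Oas2. With no library left out these were smaller, at 2.261, 1.746 and 1.865, since replicate 2 is the higher of the null pair for these genes. Each group then held 1 library, so only disagreement between subsets set the spread, and no p is drawn from these fits.

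Oas1a, which makes the signal for RNase L and whose promoter is printed above, held 134 FPKM in the CEBPaCre Gr-1+ library, against 31.5 and 58.4 FPKM in the null Gr-1+ libraries. In Gr-1- it held 50.6 FPKM in the CEBPaCre Gr-1- library, against 12.7 FPKM in the null one. Oas2, of the same enzyme family, was 2.98-fold higher in Gr-1+ and 4.76-fold higher in Gr-1-. Among the regulators, Irf7, which amplifies interferon production, held 263 FPKM in the CEBPaCre Gr-1+ library, against 54.9 and 101 FPKM in the null Gr-1+ libraries, and Stat2, a subunit of the factor that binds the response element, held 35.2 FPKM in CEBPaCre Gr-1+ against 10.8 and 15.6 FPKM in null Gr-1+. Both were also higher in Gr-1-, at 89.8 FPKM in CEBPaCre against 33.2 FPKM in null for Irf7 and 13.6 against 5.93 FPKM for Stat2.

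Ifit3 and Ifi27l2a were chosen after their values were seen. Ifit3, an interferon-induced antiviral protein, held 48.3 FPKM in the CEBPaCre Gr-1+ library, against 2.84 and 7.84 FPKM in the null Gr-1+ libraries, an 8.46-fold difference. In Gr-1- it held 7.60 FPKM in the CEBPaCre library, against 1.80 FPKM in the null one, a 3.07-fold difference. Ifi27l2a, an interferon-induced membrane protein, held 2981 FPKM in the CEBPaCre Gr-1+ library, against 465 and 1136 FPKM in the null Gr-1+ libraries, and 669 FPKM in the CEBPaCre Gr-1- library, against 55.8 FPKM in the null one. For Ifit3 the larger difference was in Gr-1+, and for Ifi27l2a it was in Gr-1-.

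The remaining libraries were set beside these levels. In CEBPaCre Gr-1+ the 38 genes averaged 5.89 on log2(FPKM + 1), against 3.86 and 4.73 in the null Gr-1+ libraries, with 4.74 in CD19Cre Gr-1+. CEBPaCre was the highest of the 4 Gr-1+ libraries for 35 of the 38 genes (against 26.5% of all genes), and both null libraries were the lowest 2 of 4 for 19 (against 36.1% of all genes). In Gr-1- the mean was 4.28 in CEBPaCre and 2.98 in null, with 4.25, 3.74 and 3.83 in the CD11cCre, CD19Cre and floxed libraries. There CEBPaCre was the highest of 5 for 12 genes (against 20.2% of all genes), and the null library was the lowest of 5 for 31 (against 18.5% of all genes). Within the null Gr-1+ pair, replicate 2 exceeded replicate 1 for 37 of the 38 (against 30.7% of all genes).

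**Figure D2:**
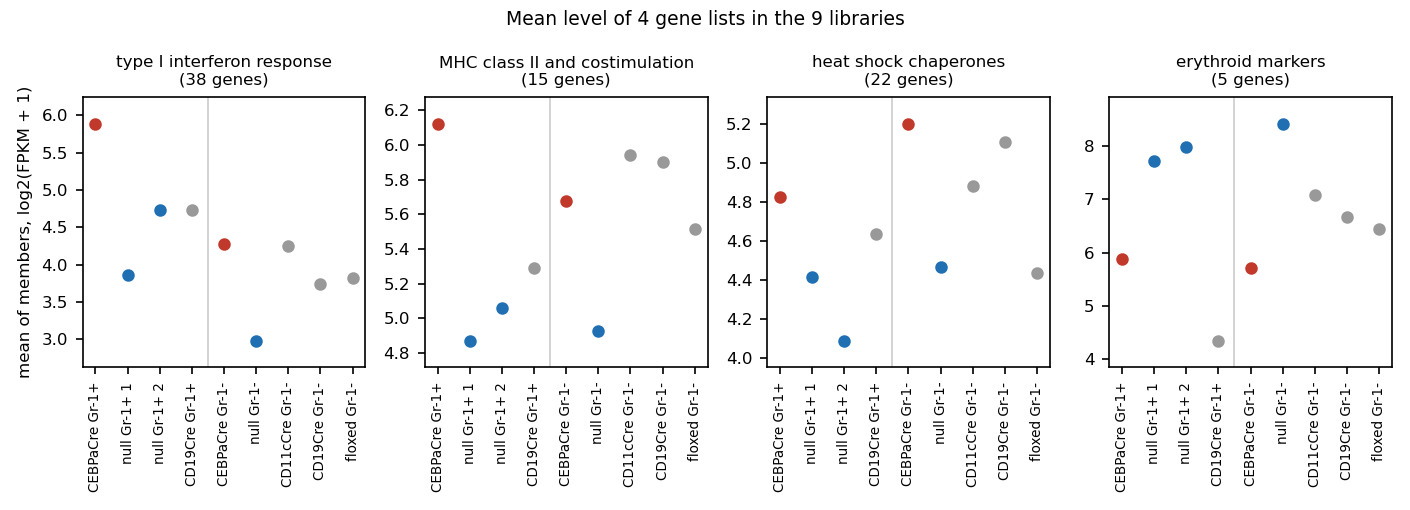
Mean log2(FPKM + 1) of the tested members of 4 gene lists in each of the 9 libraries, with CEBPaCre in red, null in blue and the remaining genotypes in grey, and Gr-1+ left of the vertical line. The axes do not start at 0. The interferon mean is highest in CEBPaCre Gr-1+ (5.89) and lowest in null Gr-1- (2.98), and the erythroid mean is lower in both CEBPaCre libraries than in the 3 null libraries.

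Genes induced by interferon gamma, many of them GTPases that act on intracellular pathogens, lay in the same direction. Of 15 tested, 9 were kept as higher (against 31.2% of all genes) and 0 as lower, with medians of 0.98 in Gr-1+ and 0.84 in Gr-1-, while upper-quartile scaling kept 8 as higher and 1 as lower. Irgm1, an immunity-related GTPase, held 87.8 FPKM in the CEBPaCre Gr-1+ library, against 26.5 and 42.2 FPKM in the null Gr-1+ libraries, and 31.9 FPKM in the CEBPaCre Gr-1- library, against 12.2 FPKM in the null one. Tap1, the peptide transporter for MHC class I, was 2.23-fold higher in Gr-1+ and 2.19-fold higher in Gr-1-. Igtp, another such GTPase, was 3.09-fold higher in Gr-1+ and 2.53-fold higher in Gr-1-. Socs1, a brake on cytokine signalling, was 3.14-fold higher in Gr-1+ and 2.02-fold higher in Gr-1-. Many members respond to both types of interferon. GAAANNGAAA was found in the promoters of 8 of the 14 with a promoter in the table.

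MHC class II genes formed a further group that was higher in the CEBPaCre libraries. Of 15 genes of MHC class II and costimulation, 11 were kept as higher and 0 as lower, against 31.2% and 5.01% of all genes. The medians were 1.11 in Gr-1+ and 0.86 in Gr-1-, against 0.18 and 0.23. Under upper-quartile scaling 8 were kept as higher and 2 as lower, against 11.3% and 15.1% of all genes. Cd74, the invariant chain that guards the peptide groove, held 2231 FPKM in the CEBPaCre Gr-1+ library, against 415 and 521 FPKM in the null Gr-1+ libraries. In Gr-1- it held 1962 FPKM in the CEBPaCre Gr-1- library, against 655 FPKM in the null one. H2-Aa, the alpha chain of I-A, held 345 FPKM in the CEBPaCre Gr-1+ library, against 44.9 and 73.3 FPKM in the null Gr-1+ libraries, and 362 FPKM in the CEBPaCre Gr-1- library, against 137 FPKM in the null one. The libraries did not overlap between genotypes for either gene, as holds for every kept gene. The folds were 4.79 and 5.93 in Gr-1+ and 2.99 and 2.62 in Gr-1-.

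The chaperones of peptide loading differed less. H2-DMa differed by 2.16-fold in Gr-1+ and 2.05-fold in Gr-1-, and H2-DMb2 by 3.19-fold and 2.12-fold, each higher in CEBPaCre. Cd40, a costimulatory receptor, held 32.0 FPKM in the CEBPaCre Gr-1+ library, against 19.5 and 24.4 FPKM in the null Gr-1+ libraries, and 10.9 FPKM in the CEBPaCre Gr-1- library, against 4.72 FPKM in the null one. Cd80 and Cd86, the costimulatory ligands for CD28, were chosen after their values were seen and were not kept: Cd80 held 2.25 FPKM in CEBPaCre against 3.01 and 2.33 FPKM in null Gr-1+, and Cd86 held 11.7 against 12.9 and 11.7 FPKM. In Gr-1- the null library held the lowest value of the 5 libraries for 12 of the 15 genes (against 18.5% of all genes), and the CEBPaCre library the highest for 1 (against 20.2% of all genes). For Cd74 the CD11cCre, CD19Cre and floxed Gr-1- libraries held 3461, 3320.0 and 2425 FPKM, above the CEBPaCre library.

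B cells and dendritic cells also express MHC class II, and markers of both were read beside it. Of 9 dendritic cell markers tested, 6 were kept as higher and 1 as lower (4 and 2 under upper-quartile scaling), against 31.2% and 5.01% of all genes. Cd209a, a lectin of monocyte-derived and type 2 dendritic cells, held 13.1 FPKM in the CEBPaCre Gr-1+ library, against 0 and 1.47 FPKM in the null Gr-1+ libraries, and 31.8 FPKM in the CEBPaCre Gr-1- library, against 3.98 FPKM in the null one. Clec10a, a lectin of the same cells, was 1.76-fold higher in Gr-1+ and 2.45-fold higher in Gr-1-. The summed level of the 13 dendritic cell markers in the files was 237 FPKM in CEBPaCre Gr-1+ against 92.8 and 125 FPKM in null Gr-1+, and 124 FPKM in CEBPaCre Gr-1- against 54.5 FPKM in null Gr-1-. Bst2, which is also an interferon response gene, held 148 FPKM of the CEBPaCre Gr-1+ sum and 41.1 and 73.5 FPKM of the null Gr-1+ sums.

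Of 6 B cell markers tested, 2 were kept as higher, a share near the 31.2% of all genes, and 2 as lower, with the same counts under upper-quartile scaling. Their values are given only as levels beside the MHC class II genes. Cd79b, a subunit of the B cell receptor, held 17.0 FPKM in the CEBPaCre Gr-1+ library, against 10.2 and 7.82 FPKM in the null Gr-1+ libraries, and 36.4 FPKM in the CEBPaCre Gr-1- library, against 24.2 FPKM in the null one, and its partner Cd79a held 0.816 FPKM in the CEBPaCre Gr-1+ library, against 0.334 and 0.477 FPKM in the null Gr-1+ libraries, and 20.0 FPKM in the CEBPaCre Gr-1- library, against 5.08 FPKM in the null one. Cd72, a B cell coreceptor, lay the other way, with 2.01 FPKM in the CEBPaCre Gr-1+ library, against 3.02 and 2.64 FPKM in the null Gr-1+ libraries, and 19.3 FPKM in the CEBPaCre Gr-1- library, against 29.3 FPKM in the null one. The 11 B cell markers summed to 21.7 FPKM in CEBPaCre Gr-1+ against 15.8 and 13.2 FPKM in null Gr-1+, and to 119 FPKM in CEBPaCre Gr-1- against 76.2 FPKM in null Gr-1-. Igj, the joining chain of secreted IgM and IgA, chosen after its values were seen, held 5.52 FPKM in the CEBPaCre Gr-1+ library, against 0.0742 and 0.989 FPKM in the null Gr-1+ libraries, and 48.5 FPKM in the CEBPaCre Gr-1- library, against 0.374 FPKM in the null one.

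Of 8 NK cell markers tested, 2 were kept as higher and 0 as lower, also under upper-quartile scaling, a share under the 31.2% of all genes. Klrk1, the activating receptor NKG2D, held 2.64 FPKM in the CEBPaCre Gr-1+ library, against 0.0635 and 0.907 FPKM in the null Gr-1+ libraries, and 3.52 FPKM in the CEBPaCre Gr-1- library, against 0.433 FPKM in the null one. The 13 NK markers summed to 248 FPKM in CEBPaCre Gr-1- against 43.3 FPKM in null Gr-1-, with 847, 167 and 402 FPKM in the CD11cCre, CD19Cre and floxed libraries. In Gr-1+ they summed to 7.58 FPKM in CEBPaCre and 2.13 and 7.91 FPKM in null, with Ncr1 listed at 0 in every Gr-1+ library. The part of these cells in the values above was not tested, and in bulk RNA fewer cells of a type and less RNA per cell cannot be told apart.

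Genes for heat shock chaperones, which refold proteins, included Hsp70 genes with large differences toward the CEBPaCre libraries. Hspa1a, an inducible Hsp70, held 126 FPKM in the CEBPaCre Gr-1+ library, against 13.6 and 3.06 FPKM in the null Gr-1+ libraries, and 237 FPKM in the CEBPaCre Gr-1- library, against 32.4 FPKM in the null one. That is a 16.6-fold difference in Gr-1+ and a 7.12-fold difference in Gr-1-, with no overlap in either subset, as holds for every kept gene. Hspa1b, its near-identical copy, was 16.1-fold higher in Gr-1+ and 8.37-fold higher in Gr-1-, and reads of the pair cannot be assigned with certainty. Hspa1l, a neighbouring Hsp70 gene, held 8.72 FPKM in the CEBPaCre Gr-1+ library, against 0.905 and 0.434 FPKM in the null Gr-1+ libraries, and 17.4 FPKM in the CEBPaCre Gr-1- library, against 2.38 FPKM in the null one (limma adjusted p = 0.0746). In the fit of all 9 libraries Hspa1l passed (limma adjusted p = 0.016). Without null Gr-1+ replicate 2 the fitted log2 difference was 2.979 for Hspa1a and 3.163 for Hspa1b, with 1 library left in each group.

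High values of these genes also occurred outside the CEBPaCre libraries. In the CD11cCre Gr-1- library Hspa1a held 232 FPKM and Hspa1l 17.0 FPKM, close to the CEBPaCre Gr-1- values, while the CD19Cre and floxed Gr-1- libraries held 21.0 and 60.9 FPKM of Hspa1a. Of 22 chaperone genes tested, 15 were kept as higher and 0 as lower, against 31.2% and 5.01% of all genes. The medians were 0.34 in Gr-1+ and 0.49 in Gr-1-, against 0.18 and 0.23 for all genes. Under upper-quartile scaling 6 were kept as higher and 2 as lower, against 11.3% and 15.1% of all genes. Dnajb1, a cochaperone of Hsp70, held 34.2 FPKM in the CEBPaCre Gr-1+ library, against 21.2 and 17.3 FPKM in the null Gr-1+ libraries, and 57.6 FPKM in the CEBPaCre Gr-1- library, against 22.2 FPKM in the null one. Fkbp4, an Hsp90 cochaperone, was higher by 1.42-fold in Gr-1+ and 1.76-fold in Gr-1-. Hsf1, the heat shock factor itself, chosen after its values were seen, was not kept and held 17.4 FPKM in the CEBPaCre Gr-1+ library, against 16.4 and 13.9 FPKM in the null Gr-1+ libraries, and 22.2 FPKM in the CEBPaCre Gr-1- library, against 20.4 FPKM in the null one.

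Genes that respond early to stimulation or handling were read as well. Of 21 immediate early genes, 1 was kept as higher (4.76%, against 31.2% of all genes) and 0 as lower, with 0 and 0 under upper-quartile scaling. The 1 was Gadd45b, a stress-induced regulator of DNA repair, at 1.202-fold in Gr-1+ and 1.18-fold in Gr-1-. Klf2, a transcription factor of quiescence, held 565 FPKM in the CEBPaCre Gr-1+ library, against 623 and 471 FPKM in the null Gr-1+ libraries, and 764 FPKM in the CEBPaCre Gr-1- library, against 527 FPKM in the null one. The mean level of the 21 genes on log2(FPKM + 1) was 6.02 in CEBPaCre Gr-1+, between the 7.01 and 5.25 of the null pair. Of 17 unfolded protein response genes, 4 were kept as higher and 1 as lower (1 and 1 under upper-quartile scaling). These shares of 23.5% and 5.88% lay under and near the 31.2% and 5.01% of all genes. Sdf2l1, a chaperone partner of the endoplasmic reticulum, was 1.37-fold higher in Gr-1+ and 1.89-fold higher in Gr-1-, and the lower one was Asns, asparagine synthetase, at 0.591 FPKM in the CEBPaCre Gr-1+ library, against 2.61 and 1.63 FPKM in the null Gr-1+ libraries, and 0.810 FPKM in the CEBPaCre Gr-1- library, against 2.78 FPKM in the null one.

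**Figure D3:**
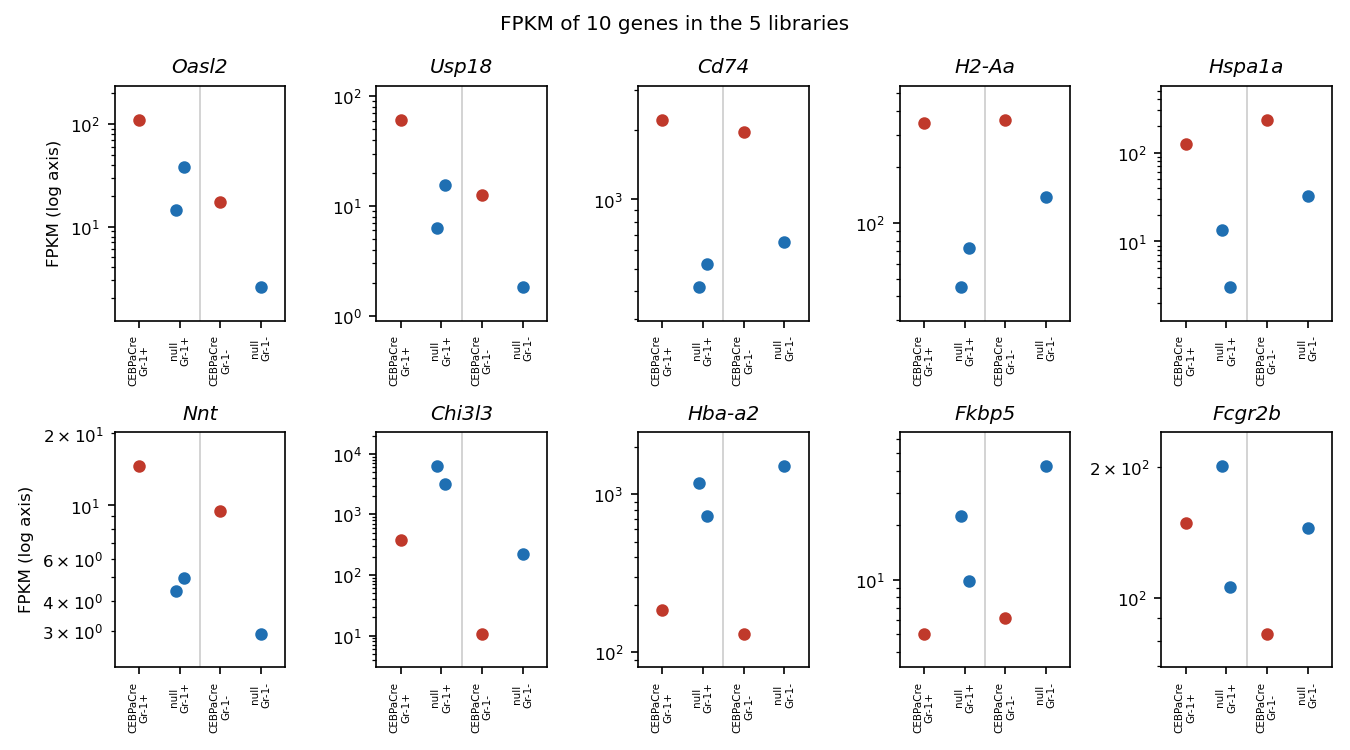
FPKM on a log axis of 10 genes in the 5 libraries, 1 point per library, with CEBPaCre in red and null in blue and Gr-1+ left of the vertical line. The first 9 genes were kept by the rule, which itself requires that genotypes do not overlap within a subset. Of all genes tested, 49.4% lay above and 10.6% below every null library in both subsets. For Fcgr2b the CEBPaCre Gr-1+ point (148 FPKM) lies between the null points (201 and 106 FPKM).

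Among genes lower in the libraries labelled CEBPaCre, which were fewer on the deposited scale but more numerous than the higher ones under upper-quartile scaling, large differences lay in chitinase-like and haemoglobin genes. Chi3l3, a chitinase-like protein (Ym1) secreted by myeloid cells, held 379 FPKM in the CEBPaCre Gr-1+ library, against 6304 and 3240.0 FPKM in the null Gr-1+ libraries, and 10.8 FPKM in the CEBPaCre Gr-1- library, against 223 FPKM in the null one. It was 11.9-fold lower in Gr-1+ and 19.0-fold lower in Gr-1- (limma adjusted p = 0.134). Chi3l4 (Ym2), a near-identical copy whose reads cannot be fully told apart, was 11.4-fold lower in Gr-1+ and 10.3-fold lower in Gr-1- (limma adjusted p = 0.117). The other genotypes lay between: CD19Cre Gr-1+ held 1122 FPKM of Chi3l3, and the CD11cCre, CD19Cre and floxed Gr-1- libraries held 18.3, 92.5 and 32.1 FPKM. Both genes passed limma in the fit of all 9 libraries (adjusted p = 0.049 and 0.0388) and after quantile normalization (adjusted p = 0.0417 and 0.0233).

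All 5 erythroid markers tested were kept as lower (against 5.01% of all genes), also under both scalings, with medians of -1.97 in Gr-1+ and -2.53 in Gr-1-. Hba-a2, an alpha globin, held 185 FPKM in the CEBPaCre Gr-1+ library, against 1183 and 731 FPKM in the null Gr-1+ libraries, and 131 FPKM in the CEBPaCre Gr-1- library, against 1512 FPKM in the null one. Alas2, the erythroid enzyme that starts haem synthesis, held 4.47 FPKM in the CEBPaCre Gr-1+ library, against 16.3 and 17.1 FPKM in the null Gr-1+ libraries, and 3.51 FPKM in the CEBPaCre Gr-1- library, against 25.0 FPKM in the null one. Hbb-b2, a beta globin, was 3.90-fold lower in Gr-1+ and 6.80-fold lower in Gr-1-. The 9 erythroid markers in the files summed to 619 FPKM in CEBPaCre Gr-1+ against 2575 and 2518 FPKM in null Gr-1+, and to 501 FPKM in CEBPaCre Gr-1- against 3715 FPKM in null Gr-1-. The sums of the 4 other libraries ran from 296 FPKM (CD19Cre Gr-1+) to 1773 FPKM (CD11cCre Gr-1-). The part of red cells or their precursors in these values was not tested, and reads of the globin copies cannot be assigned with certainty.

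Among glucocorticoid targets, 3 of 12 were kept as higher (25%, against 31.2% of all genes) and 2 as lower (16.7%, against 5.01%). Under upper-quartile scaling the counts were 2 and 2. Tsc22d3, the leucine zipper protein GILZ, held 324 FPKM in the CEBPaCre Gr-1+ library, against 125 and 188 FPKM in the null Gr-1+ libraries, and 444 FPKM in the CEBPaCre Gr-1- library, against 156 FPKM in the null one. Fkbp5, a cochaperone that restrains the glucocorticoid receptor, lay the other way and held 5.03 FPKM in the CEBPaCre Gr-1+ library, against 22.5 and 9.79 FPKM in the null Gr-1+ libraries, and 6.11 FPKM in the CEBPaCre Gr-1- library, against 42.4 FPKM in the null one. Klf9, a transcription factor, was 2.01-fold lower in Gr-1+ and 1.76-fold lower in Gr-1-. These 3 genes are known targets of the same receptor and did not share a direction.

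Several single genes were chosen for a small limma p among kept genes. Differences that are similar in both subsets and large beside the null pair were therefore built into their choice. Nnt, the mitochondrial nicotinamide nucleotide transhydrogenase, held 14.6 FPKM in the CEBPaCre Gr-1+ library, against 4.41 and 4.96 FPKM in the null Gr-1+ libraries, and 9.47 FPKM in the CEBPaCre Gr-1- library, against 2.91 FPKM in the null one. Its folds were 2.75 and 2.67 (limma adjusted p = 0.134), and it passed in the fit of all 9 libraries (adjusted p = 0.0388). The other Gr-1- libraries held 4.53 (CD11cCre), 6.21 (CD19Cre) and 3.23 FPKM (floxed). Cdk5rap1, which modifies mitochondrial transfer RNA, was lower, with 1.67 FPKM in the CEBPaCre Gr-1+ library, against 8.71 and 8.12 FPKM in the null Gr-1+ libraries, and 1.91 FPKM in the CEBPaCre Gr-1- library, against 7.09 FPKM in the null one (limma adjusted p = 0.134). Parp1, a sensor of DNA breaks, held 30.2 FPKM in the CEBPaCre Gr-1+ library, against 15.2 and 15.2 FPKM in the null Gr-1+ libraries, and 11.2 FPKM in the CEBPaCre Gr-1- library, against 5.84 FPKM in the null one.

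Further genes with small p were Txnip, an inhibitor of thioredoxin, 2.45-fold higher in Gr-1+ and 1.95-fold higher in Gr-1-, and Nuak2, a kinase related to AMPK, 2.08-fold and 2.51-fold higher. Slc46a3, a lysosomal transporter, held 25.6 FPKM in the CEBPaCre Gr-1+ library, against 11.8 and 11.2 FPKM in the null Gr-1+ libraries, and 86.2 FPKM in the CEBPaCre Gr-1- library, against 41.7 FPKM in the null one. Gbp9, an interferon-inducible GTPase, was higher by 2.31-fold in Gr-1+ and 1.91-fold in Gr-1-. The same folds were 2.34 and 3.02 for Avpi1, and 2.16 and 1.93 for Itprip. In the lower direction, Egln1, the oxygen-sensing prolyl hydroxylase, held 5.18 FPKM in the CEBPaCre Gr-1+ library, against 14.1 and 15.6 FPKM in the null Gr-1+ libraries, and 6.74 FPKM in the CEBPaCre Gr-1- library, against 13.4 FPKM in the null one. Fam120a was 2.095-fold lower in Gr-1+ and 2.04-fold lower in Gr-1-. Each had a limma adjusted p of 0.161.

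Activating Fc receptors did not share a direction. Fcgr1, the high-affinity receptor for IgG, held 40.6 FPKM in the CEBPaCre Gr-1+ library, against 19.8 and 26.4 FPKM in the null Gr-1+ libraries, and 4.56 FPKM in the CEBPaCre Gr-1- library, against 3.33 FPKM in the null one, and missed the rule in Gr-1-. Fcgr4, a receptor of the Gr-1- subset, held 22.6 FPKM in the CEBPaCre Gr-1+ library, against 77.7 and 35.1 FPKM in the null Gr-1+ libraries, and 427 FPKM in the CEBPaCre Gr-1- library, against 594 FPKM in the null one, and was not kept. Fcgr3 held 219 FPKM in the CEBPaCre Gr-1+ library, against 262 and 172 FPKM in the null Gr-1+ libraries, and 75.3 FPKM in the CEBPaCre Gr-1- library, against 58.9 FPKM in the null one, and its fitted difference of 0.17 turned to -0.083 with upper-quartile scaling and to -0.043 with quantile normalization. Of 22 Fc receptor and signalling genes, 8 were kept as higher (36.4%, against 31.2% of all genes) and 0 as lower (5 and 0 under upper-quartile scaling). Fcgrt, the receptor that recycles IgG, held 81.9 FPKM in the CEBPaCre Gr-1+ library, against 22.3 and 22.7 FPKM in the null Gr-1+ libraries, and 164 FPKM in the CEBPaCre Gr-1- library, against 87.0 FPKM in the null one. Inpp5d, the phosphatase SHIP1 that CD32 recruits, was 1.48-fold and 1.44-fold higher, and Plcg2, a phospholipase of the activating pathway, was 1.58-fold and 1.56-fold higher.

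Of 35 chromosome 1 genes around Fcgr2b, 17 were kept as higher (against 31.2% of all genes) and 0 as lower, with medians of 0.37 and 0.35, while upper-quartile scaling kept 9 as higher and 2 as lower and quantile normalization 7 and 2. Pyhin1, an interferon-inducible member of the Ifi200 family, held 139 FPKM in the CEBPaCre Gr-1+ library, against 49.96 and 72.6 FPKM in the null Gr-1+ libraries, and 30.2 FPKM in the CEBPaCre Gr-1- library, against 14.0 FPKM in the null one. Slamf8, a SLAM family receptor, was higher by 3.15-fold in Gr-1+ and 2.34-fold in Gr-1-. Of 11 genes of the X segment duplicated by Yaa, 2 were kept as higher (18.2%, against 31.2% of all genes) and 1 as lower (9.09%, against 5.01%). Under upper-quartile scaling the counts were 0 and 3. Tlr7 was not kept and held 83.5 FPKM in the CEBPaCre Gr-1+ library, against 78.5 and 68.2 FPKM in the null Gr-1+ libraries, and 102 FPKM in the CEBPaCre Gr-1- library, against 76.3 FPKM in the null one. The lower one was Mid1, a ubiquitin ligase at the edge of that segment, at 0.270 FPKM in the CEBPaCre Gr-1+ library, against 2.29 and 1.23 FPKM in the null Gr-1+ libraries, and 0.436 FPKM in the CEBPaCre Gr-1- library, against 2.85 FPKM in the null one. Of 17 Toll-like receptor and endosomal sensing genes, 5 were kept as higher (29.4%, near the 31.2% of all genes) and 0 as lower (3 and 3 under upper-quartile scaling). Among them was Unc93b1, the chaperone of endosomal Toll-like receptors, at 438 FPKM in the CEBPaCre Gr-1+ library, against 249.8 and 247 FPKM in the null Gr-1+ libraries, and 183 FPKM in the CEBPaCre Gr-1- library, against 130.2 FPKM in the null one. Tlr8, another RNA sensor of the segment, differed 1.31-fold in Gr-1+ and 1.49-fold in Gr-1-.

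The gene the Cre is named for did not separate the genotypes. Cebpa, the transcription factor of granulocyte and monocyte progenitors, held 22.6 FPKM in the CEBPaCre Gr-1+ library, against 22.9 and 36.1 FPKM in the null Gr-1+ libraries, and 4.49 FPKM in the CEBPaCre Gr-1- library, against 4.39 FPKM in the null one. Of 27 C/EBP family members and myeloid transcription factors, 5 were kept as higher and 1 as lower (3 and 3 under upper-quartile scaling). These shares of 18.5% and 3.70% lay under the 31.2% and 5.01% of all genes. Batf3, a transcription factor of dendritic cells and a marker given for this comparison, held 32.2 FPKM in the CEBPaCre Gr-1+ library, against 17.7 and 17.9 FPKM in the null Gr-1+ libraries, but in Gr-1- the CEBPaCre library held 7.10 FPKM against 6.81 FPKM in null. It was kept only because the null pair differed by 0.016 on the log2 scale, less than the 0.051 of Gr-1-. Its Gr-1- difference is thus small, and it lies below the all-gene median of 0.23 in that subset. Cebpg was 1.52-fold higher in Gr-1+ and 1.72-fold higher in Gr-1-, and Maf, a factor of macrophages, was 2.08-fold and 1.30-fold lower.

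Of 21 classical monocyte markers, 7 were kept as higher, a share near the 31.2% of all genes, and 4 as lower (19.05%, against 5.01% of all genes). Under upper-quartile scaling the counts were 3 and 5. Ly6c1, part of what the Gr-1 antibody binds, held 386 FPKM in the CEBPaCre Gr-1+ library, against 153 and 239 FPKM in the null Gr-1+ libraries, and 6.04 FPKM in the CEBPaCre Gr-1- library, against 1.70 FPKM in the null one, and its reads cannot be told with certainty from those of Ly6c2. Ly6a, which interferon induces, was 2.14-fold and 4.76-fold higher. Vcan, a matrix proteoglycan, lay the other way at 10.4 FPKM in the CEBPaCre Gr-1+ library, against 35.9 and 28.4 FPKM in the null Gr-1+ libraries, and 0.154 FPKM in the CEBPaCre Gr-1- library, against 1.10 FPKM in the null one. Of 24 nonclassical markers, 3 were kept as higher (12.5%) and 1 as lower (4.17%), both shares under those of all genes (1 and 3 under upper-quartile scaling). Cx3cr1, the fractalkine receptor, was not kept at 137 FPKM in the CEBPaCre Gr-1+ library, against 78.2 and 112 FPKM in the null Gr-1+ libraries, and 184 FPKM in the CEBPaCre Gr-1- library, against 137 FPKM in the null one. Of 14 neutrophil markers, 3 were kept as higher (21.4%, under the 31.2% of all genes) and 1 as lower (7.14%, near the 5.01%). Under upper-quartile scaling the counts were 3 and 3. Retnlg, a resistin-like protein of neutrophils, was not kept and held 127 FPKM in the CEBPaCre Gr-1+ library, against 29.3 and 13.9 FPKM in the null Gr-1+ libraries, and 22.7 FPKM in the CEBPaCre Gr-1- library, against 11.1 FPKM in the null one.

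**Figure D4:**
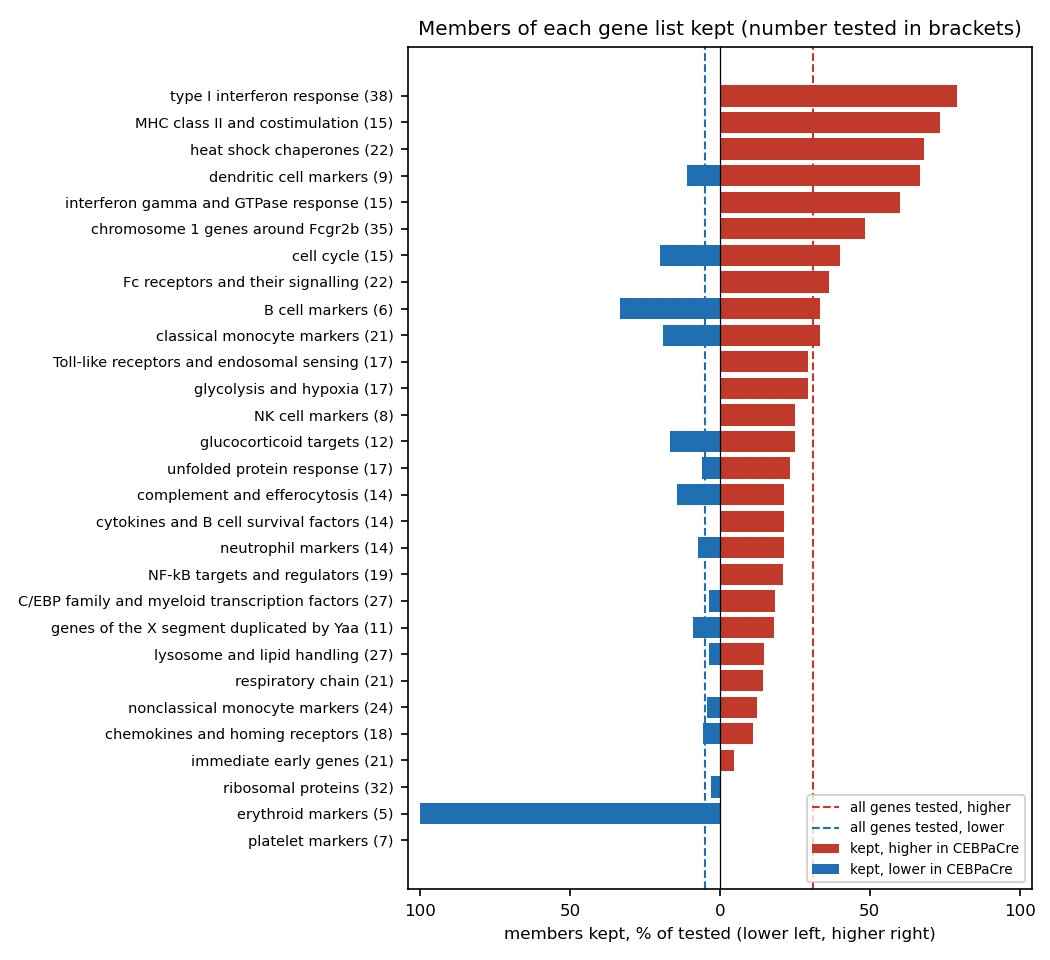
Share of the tested members of each list with at least 5 tested genes that was kept as higher (red, right) or lower (blue, left), with dashed lines at the share of all genes tested (31.2% and 5.01%). On the deposited scale drawn here the interferon, MHC class II and chaperone lists reach furthest to the right. Under upper-quartile scaling 6 of the 22 chaperones were kept as higher and 2 as lower. The erythroid list alone has all its members to the left, and the ribosomal, platelet and immediate early lists have almost no kept members.

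In most other lists the share kept as higher lay under the 31.2% of all genes. Of 14 cytokine and B cell survival genes, 3 were kept as higher and 0 as lower (1 and 0 under upper-quartile scaling). Il18, an inflammasome cytokine, held 35.2 FPKM in the CEBPaCre Gr-1+ library, against 20.4 and 19.0 FPKM in the null Gr-1+ libraries, and 8.34 FPKM in the CEBPaCre Gr-1- library, against 3.54 FPKM in the null one, while Tnfsf13b (BAFF), a survival factor for B cells, was 1.18-fold and 1.34-fold higher. Of 18 chemokines and homing receptors, 2 were kept as higher and 1 as lower (1 and 4 under upper-quartile scaling). Ccl2, the ligand of Ccr2, was not kept, since the null pair itself held 56.7 and 11.8 FPKM, against 8.28 FPKM in CEBPaCre Gr-1+. Of 19 NF-kB targets and regulators, 4 were kept as higher and 0 as lower (1 and 1 under upper-quartile scaling), Nfkbie among them at 1.42-fold and 1.44-fold.

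Of 14 complement and efferocytosis genes, 3 were kept as higher (21.4%, against 31.2% of all genes) and 2 as lower (14.3%, against 5.01%). Under upper-quartile scaling the counts were 2 and 2. C3, the central complement component, held 261 FPKM in the CEBPaCre Gr-1+ library, against 118 and 151 FPKM in the null Gr-1+ libraries, and 97.9 FPKM in the CEBPaCre Gr-1- library, against 36.2 FPKM in the null one. Axl, a receptor for dying cells, held 14.8 FPKM in the CEBPaCre Gr-1+ library, against 1.39 and 3.92 FPKM in the null Gr-1+ libraries, and 2.62 FPKM in the CEBPaCre Gr-1- library, against 0.378 FPKM in the null one. Of 27 lysosome and lipid handling genes, 4 were kept as higher and 1 as lower (1 and 6 under upper-quartile scaling). Of 17 glycolysis genes 5 were kept as higher and 0 as lower, of 21 respiratory chain genes 3 and 0, and of 32 ribosomal protein genes 0 were kept as higher and 1 as lower, against 2 and 2, 0 and 0, and 0 and 2 under upper-quartile scaling.

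Of 15 cell cycle genes, 6 were kept as higher (40%) and 3 as lower (20%), against 31.2% and 5.01% of all genes. Under upper-quartile scaling 1 was kept as higher and 4 as lower, against 11.3% and 15.1% of all genes. Ccnd3, a D-type cyclin, held 267 FPKM in the CEBPaCre Gr-1+ library, against 161 and 163 FPKM in the null Gr-1+ libraries, and 218 FPKM in the CEBPaCre Gr-1- library, against 140.5 FPKM in the null one. Mki67 and Birc5, which mark dividing cells, lay the other way. Mki67 held 0.464 FPKM in the CEBPaCre Gr-1+ library, against 1.79 and 1.13 FPKM in the null Gr-1+ libraries, and 0.772 FPKM in the CEBPaCre Gr-1- library, against 1.80 FPKM in the null one. Birc5 held 1.64 FPKM in the CEBPaCre Gr-1+ library, against 5.66 and 3.13 FPKM in the null Gr-1+ libraries, and 0.898 FPKM in the CEBPaCre Gr-1- library, against 2.70 FPKM in the null one. Of 7 platelet markers 0 were kept, also under upper-quartile scaling. Of 3 eosinophil and basophil markers 0 were kept, and under upper-quartile scaling 0 were kept as higher and 1 as lower. All 3 lay below every null library of their subset in both subsets, against 10.6% of all genes, with medians of -1.10 in Gr-1+ and -0.55 in Gr-1-. Ear1, a ribonuclease of eosinophils that monocytes also express, was not kept and held 9.21 FPKM in the CEBPaCre Gr-1+ library, against 28.0 and 15.6 FPKM in the null Gr-1+ libraries, and 98.2 FPKM in the CEBPaCre Gr-1- library, against 137 FPKM in the null one. The single T cell marker tested, Cd8b1, was not kept, also under upper-quartile scaling.

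Whether the difference depended on the subset was tested as an interaction in limma, with 1 residual degree of freedom. It called 71 genes (0.677%), and 173 had an unadjusted p below 0.05. In 67 of the 71 the null Gr-1+ pair differed by less than 0.001 on log2(FPKM + 1), and in 64 both null Gr-1+ libraries were listed at 0, so the test had almost no spread to work with there. With upper-quartile scaling, quantile normalization or no filter on the mean, 0 were called. No gene described above was called, and 419 genes had opposite signs in the 2 subsets with both differences larger than that of the null pair.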

How the data were processed

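RNA from sorted cells was copied with a SMART-Seq v4 kit, per the labels' protocols, and reads were processed with TopHat2 2.0.8 and Cufflinks 2.1.1 on mm9, per the submitters' processing notes. The deposited values are FPKM per gene symbol, 1 column per library, which the authors normalized for transcript length and mapped fragments, and 0 value columns were left out. No counts are given, so depth, counting error and the strand of reads are unknown, and an exact 0 can be a failed estimate. Differences are on log2(FPKM + 1), which understates those of low genes, and a fold is on FPKM + 1. The fit was limma 3.58.1 in R 4.3.3 with a mean-variance trend, over 5 libraries with subset as a covariate, two-sided, with Benjamini-Hochberg adjustment over the 10488 genes that averaged 1 FPKM or more, and it was tested on simulated data. Fcgr2b was tested by exact permutation within subset. Named genes were Fcgr2b, Fcgr1, Fcgr3, Fcgr4, Cebpa, Hspa1a, Oasl2 and Batf3; per direction, the 12 kept genes with the smallest limma p and at least 5 FPKM in the higher genotype of each subset, and the 5 with the largest smaller-of-both-subsets difference at 10 FPKM or more; up to 4 per list with the smallest p; and 4 per direction with opposite signs. That gave 148 genes, of which those not described are covered by the list counts, and a few are not reported here. The members and lists were chosen with earlier results of these data known, so no list gets a test of its own. Alternatives were another pseudocount (0.1), other filters, upper-quartile scaling at the 75th percentile, quantile normalization, all 9 libraries in 1 fit, a fit without trend and leaving out each library. Promoters and miRNAs were matched to RefSeq by symbol, and the GRCm38.p6 coordinates apply to them only.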

Additional observations from a re-analysis of the deposited data

Results flagged for a closer look

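Opposite signs in the 2 subsets, with both differences larger than that of the null pair, drew attention to 8 genes. The value given is the log2 difference between CEBPaCre and null in Gr-1+ minus that in Gr-1-. It was 7.57 for Pisd-ps3, a pseudogene (3.42 in Gr-1+ and -4.16 in Gr-1-), and -4.90 for its relative Pisd-ps1 (-3.89 and 1.01), and reads of such copies cannot be assigned with certainty. It was 1.53 for Cfp, properdin (0.705 and -0.825), 1.05 for Cfb, complement factor B (0.859 and -0.189), and 0.95 for Lpl, lipoprotein lipase (0.556 and -0.394). It was -1.87 for Ear12, a ribonuclease of the eosinophil family (-1.38 and 0.493), -1.49 for Id3, an inhibitor of transcription factors (-1.02 and 0.475), and -1.23 for Thbd, thrombomodulin (-0.36 and 0.869). None passed the interaction test in limma (adjusted p = 0.0756 for Pisd-ps1 and 1 for the other 7).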

How the results depend on the processing

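Limits. Each genotype and subset had 1 library except null Gr-1+ with 2, so the fit rests on 2 residual degrees of freedom and the depth behind each FPKM is unknown. No paired analysis was possible because the labels tie no library to an animal, and replicate numbers here do not mark pairs. Genes called higher numbered 3, and 5 with all 9 libraries, and 7 (without null Gr-1+ replicate 1) to 37 (without CEBPaCre Gr-1+) when 1 library was left out, with 13 without null Gr-1+ replicate 2 and 26 without either Gr-1- library, which are the same Gr-1+ contrast. Genes called lower numbered 2, and 5 with all 9 libraries, 4 after quantile normalization and 3 (without either Gr-1- library) to 27 (without CEBPaCre Gr-1+) when 1 library was left out, where the spread is pooled and a lone library is assumed to vary like the others. Interaction calls numbered 71, and 0 with no filter on the mean, with upper-quartile scaling and with quantile normalization. Genes kept as higher numbered 1187 with upper-quartile scaling, 1446 with quantile normalization, 5180 when CEBPaCre had only to lie outside the null values, 80 with a 2-fold minimum, and 5547 to 6775 without either null Gr-1+ library, where only the sign rule applies. Genes kept as lower numbered 1090 with no filter on the mean, 168 with a mean of at least 5 FPKM, 1585, 1344, 1110 and 32 under the same 4 settings in that order, and 1242 to 1904 without either null Gr-1+ library. The cause of these shifts was not tested. Of 148 named genes, 143 were counted as keeping their sign in every alternative, and 13 were called in at least 1. That count takes in the genes flagged above for opposite signs, whose difference between CEBPaCre and null does depend on the library left out. For Pisd-ps3 it is 3.42 without CEBPaCre Gr-1- and -4.16 without CEBPaCre Gr-1+, so the count overstates how stable these genes are. Reversed signs were of uncalled genes. Fcgr3 was -0.043 with quantile normalization and -0.083 with upper-quartile scaling. When 1 library was left out, Fcgr2b ranged from -0.79 to 0.025, Cebpa from -0.34 to 0.026, Klf4 from -0.82 to 0.060 and Gp9 from -0.035 to 0.78 on the log2 scale. Leaving out a library gave no value for the interaction, which then has no residual degrees of freedom, nor for the kept genes without a CEBPaCre or the null Gr-1- library.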

Other observations

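The following genes were chosen after their values were seen, for their levels in the libraries outside the comparison. Xlr3b, an X-linked gene of a multicopy family whose reads cannot be assigned with certainty, held 0.0144 FPKM in the CEBPaCre Gr-1+ library, against 2.83 and 2.30 FPKM in the null Gr-1+ libraries, and 0.0220 FPKM in the CEBPaCre Gr-1- library, against 2.20 FPKM in the null one. In the CD19Cre Gr-1+ and Gr-1- libraries it held 2.49 and 1.51 FPKM, and in the CD11cCre and floxed ones 0.385 and 0.307 FPKM. Cdk5rap1 held 10.9 and 9.70 FPKM in the CD19Cre Gr-1+ and Gr-1- libraries, 0.426 FPKM in the CD11cCre and 1.80 FPKM in the floxed Gr-1- library, so that the null and CD19Cre libraries lay above the rest. Asns held 1.95 and 2.59 FPKM in the CD19Cre Gr-1+ and Gr-1- libraries, and 0.748 and 0.614 FPKM in the CD11cCre and floxed ones. Igj held 0.149 and 1.66 FPKM in the CD19Cre Gr-1+ and Gr-1- libraries, and 77.8 and 14.9 FPKM in the CD11cCre and floxed ones.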
